A study of Mus musculus with 5 samples.

Results

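The cells described here are keratinocytes of mouse dorsal skin that carried mRNA of bulge genes. They come from 4 libraries of unsorted skin cells profiled by droplet single-cell RNA sequencing, with the 3′ kit of 10x Genomics, version 3. A barcode was kept with 500 to 8000 detected genes and at most 10% mitochondrial UMIs (unique molecular identifiers, each counting 1 captured mRNA). Members were chosen by their measured counts. A member had at least 20 UMIs of Krt14 and Krt5 together and under 50 of Krt1 and Krt10 together per 10000 UMIs, at least 3 UMIs of Lhx2, Lgr5 and Kcnk2 together, and under 2 UMIs of Krt79, Cst6 and Defb6 together per 10000. The rule found 691 members among 34041 kept cells. The levels of the 10 gate genes, and the comparison of members with other cells, are therefore a description with no test.

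All mice were female and at postnatal day 46, and 2 control and 2 mutant libraries were made. Each genotype carried Lepr-Cre, which expresses the Cre recombinase from the leptin receptor gene, and mTmG, a reporter at Rosa26 in which cells turn from membrane tomato to membrane GFP after recombination. The control is written Lepr-Cre;mTmG in the sample titles and Lepr-Cre;mTmG;Smo elsewhere in the labels, and the mutant Lepr-Cre;mTmG;Smo+/-. Smo encodes the transducer of the Hedgehog signal, and how its allele was changed is not given in the labels. A library of sorted cells is not used here. The protocols describe both libraries of a genotype as technical replicates, so p-values measure only the spread between preparations.

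The bulge is the part of the hair follicle below the sebaceous gland in which the follicle's stem cells rest. Its outer layer is marked by Cd34 and Krt15, and an inner layer of Krt6-positive cells holds the club hair. Lhx2 is a transcription factor of follicle stem cells, Lgr5 a receptor for R-spondins that strengthens Wnt signalling, Kcnk2 a potassium channel and Krt15 a type I keratin. Wnt and Hedgehog signals accompany the start of new growth, whereas Bmp6, Fgf18 and secreted Wnt inhibitors are known to hold the bulge at rest.

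Members had median depths of 15117, 16525.5, 13817 and 11451 UMIs in control library 1, control library 2, mutant library 1 and mutant library 2, the order of every set of 4 values below. Their UMIs summed to 2918844 to 4790408 per library. Between 117 and 192 deposited barcodes were shared by any pair of libraries, and 0 of these were members in both. A doublet score above the limit was found in 1 to 5 members per library, and these were kept. Comparison groups were 7908 basal keratinocytes, which met the same keratin and upper-follicle limits and had 0 UMIs of the 3 bulge genes, and 452 upper follicle keratinocytes with at least 10 UMIs of Krt79, Cst6 and Defb6 per 10000.

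Most members carried more than 1 of the 3 bulge genes. Lhx2 was seen in 80.4% to 86.8% of members per library, Lgr5 in 72.9% to 82.3% and Kcnk2 in 62.7% to 73.6%, and 12.6% to 18.6% entered on a single gene. The median was 6.5 to 7.5 UMIs of the 3 genes together and the maximum 50 to 85. Levels at the edge of the gate were compared as counts per 1000000 UMIs of the cells summed (CPM). The 114 cells just inside, with 3 UMIs, held 2396 CPM of Krt15, 34.02 of Cd34 and 3769 of Ly6d, a surface protein of epidermal keratinocytes. The 256 cells just outside, with 2 UMIs, held 1786 CPM of Krt15, 10.4 of Cd34 and 3688 of Ly6d. The 80 members with 20 or more UMIs held 7243 CPM of Krt15, 178 of Cd34 and 265 of Ly6d. Cells on either side of the limit were thus alike in Ly6d, and Krt15 and Cd34 were highest in the members farthest inside.

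Markers that the gate did not use were then read as a check of the label. Krt15 stood at 4518, 4317, 5148 and 6249 CPM in members, at 1223 to 1359 CPM in basal cells and at 1144 to 1917 CPM in upper follicle cells. Cd34, a surface glycoprotein of outer bulge stem cells, stood at 87.7, 87.0, 116 and 133 CPM in members and at 3.75 to 6.13 CPM in basal cells. Members lay above both other groups in every library for both genes. Postn, a matrix protein, reached 259 to 456 CPM in members and 67.2 to 78.4 CPM in basal cells. Fgf18 stood at 34.9 to 70.2 CPM and at 1.70 to 2.62 CPM in basal cells. The 5 inner bulge markers summed to 270, 303, 320 and 438 CPM in members. They summed to 357, 353, 361 and 430 CPM in upper follicle cells and 90.4 to 113 CPM in basal cells. Sox9, a transcription factor of the outer root sheath, stood at 575 to 748 CPM in members and 836 to 979 CPM in upper follicle cells. The hair germ gene Lef1 stood at 11.99 to 21.4 CPM in members and 0.839 to 1.58 CPM in basal cells. Cdh3, also of the hair germ, stood at 69.9, 71.4, 56.3 and 54.1 CPM in members and 56.7 to 57.4 CPM in basal cells. Shh, the Hedgehog ligand, was seen in 0.490% to 0.694% of members in 3 libraries and in 0 members of mutant library 2.

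With each cell thinned to 2000 UMIs in 1 random draw, which left out 1 member per library, Krt15 was seen in 93.6% to 97.2% of members and 69.3% to 76.2% of basal cells. Cd34 was seen in 17.8% to 28.7% of members and 0.910% to 1.44% of basal cells, and without thinning in 45.1% to 59.6% and 4.44% to 7.62%. Krt15 mRNA was therefore common to both groups at different levels, and Cd34 mRNA was rare in basal cells.

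**Figure D1:**
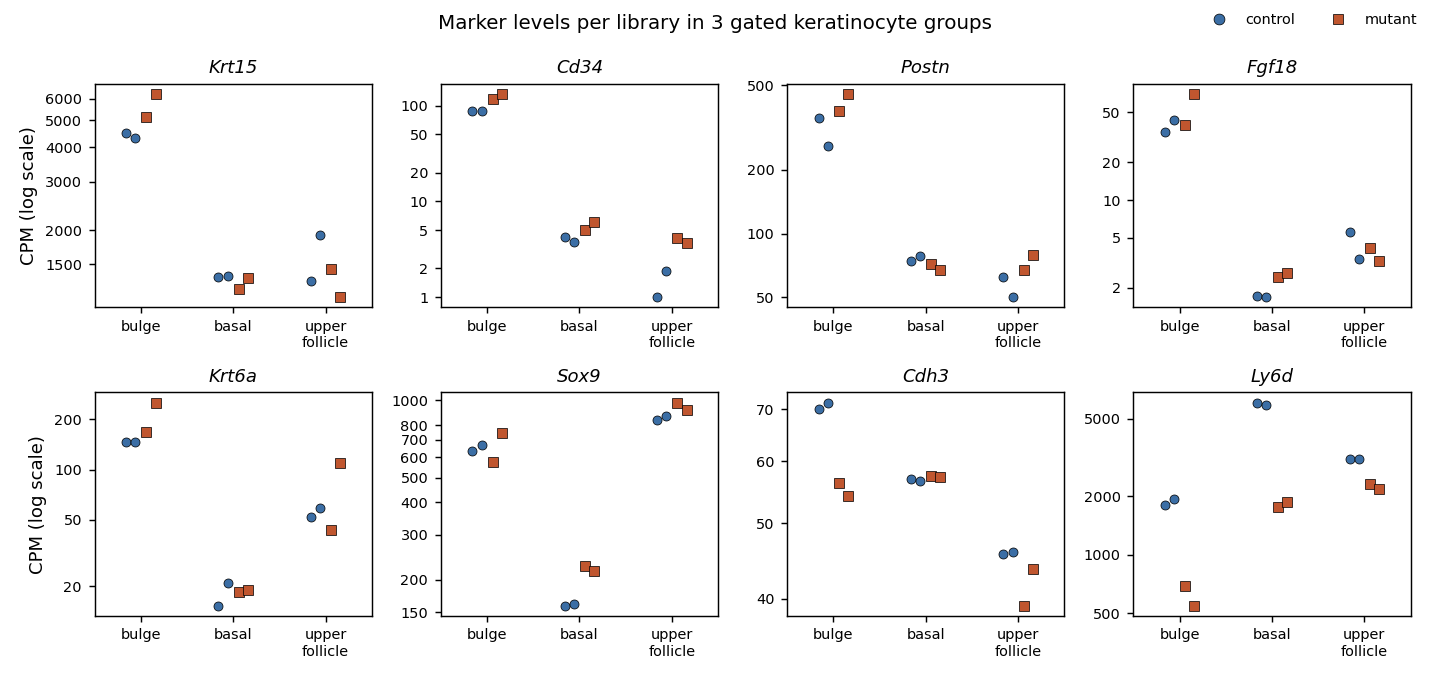
Levels of 8 marker genes (CPM, log axis) in bulge, basal and upper follicle cells, with 1 point for each control (circle) and mutant (square) library. Krt15, Cd34, Postn and Fgf18 lie highest in the bulge group, while Sox9 is higher in upper follicle cells and Ly6d is lower in the bulge group than in the others.

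Clustering the members without the gate genes gave 9 sub-clusters, whose genes are a description. Sub-cluster 0 (114 cells) held 5 of 5 outer bulge markers at raised levels, with Krt15 at 14109 CPM and Cd34 at 347 CPM, and was led by S100a4, Krt24 and Trpv4. It was outer bulge-like. Sub-cluster 1 (111 cells) also had much Krt15 (13654 CPM) and Cd34 (449 CPM) and was led by Fgf18, at 347 CPM against 13.2 CPM in the other members. Sub-cluster 2 (106 cells) was led by Dnajb1, Egr4 and Fos, genes of the heat shock and immediate early responses, and held Lef1 at 37.1 CPM and Gli1 at 37.9 CPM. Sub-cluster 4 (101 cells) was led by Gpha2, a glycoprotein hormone subunit. Sub-cluster 5 (66 cells) was led by Csf1 and Slc7a8, with Krt17 at 4119 CPM. These 5 sub-clusters, called follicle-led here, hold 498 members. In sub-clusters 2, 4 and 5, 0 of 4 bulge and 0 of 5 outer bulge markers were raised over the other members. Krt15 stood there at 3775, 6491 and 1893 CPM, beside 2152 CPM in sub-cluster 3, described next.

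The other 4 sub-clusters, with 193 members, go against the label. Sub-cluster 3 (105 cells) was led by Tslp, an epithelial cytokine, and held Ly6d at 3862 CPM, 4 of 5 basal markers and 3 of 5 markers of myeloid and Langerhans cells. Its cells were deep, with a median of 33382 UMIs, and had a median of 4 UMIs of the gate genes. Sub-cluster 6 (43 cells, 6 of them above the doublet limit) held 5 of 5 fibroblast markers and was led by Col3a1. Sub-cluster 7 (26 cells, median 40937 UMIs) held 4 of 4 melanocyte markers and was led by Pmel and Dct. Sub-cluster 8 (19 cells, 4 of them above the doublet limit) held 3 of 3 T cell markers, and its leading gene Gzmc was seen in 10.5% of its cells. Together they took 28.6%, 26.5%, 31.3% and 25.8% of members. Results that rest on these cells, called other-led, are given with and without them, a split made after the data were seen.

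**Figure D2:**
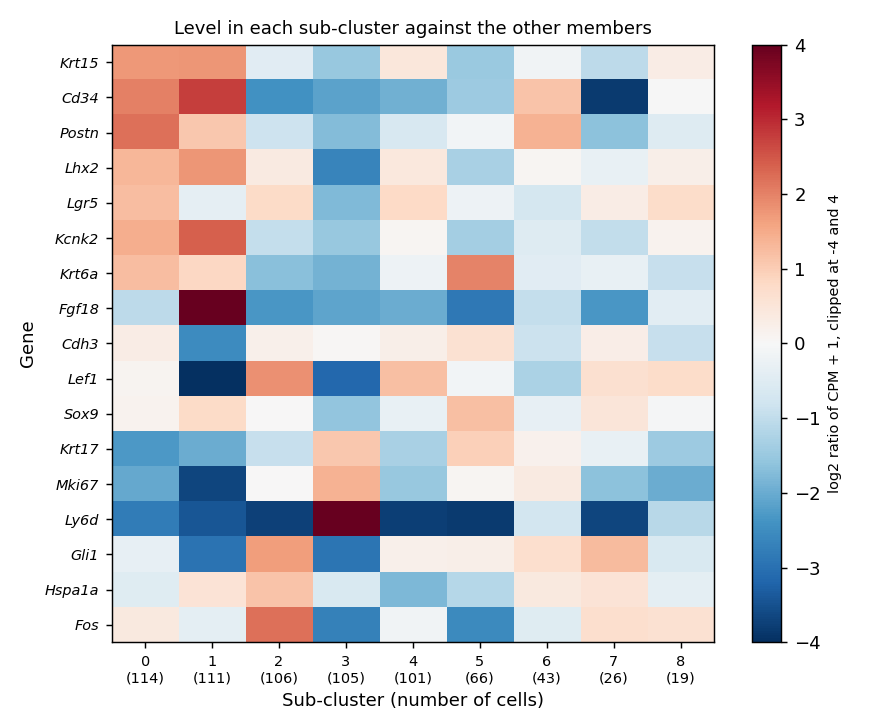
Heat map of 17 genes (rows) in 9 sub-clusters of members (columns, with their number of cells), coloured by the log2 ratio of CPM + 1 to that of the other members, limited to 4 in either direction. Krt15, Cd34 and Kcnk2 are highest in sub-clusters 0 and 1, Fgf18 in sub-cluster 1 and Ly6d in sub-cluster 3.

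Members took a smaller share of all cells in the mutant libraries, but about the same share of keratinocytes. They made up 2.32%, 2.43%, 1.69% and 1.71% of kept cells (192 of 8278, 204 of 8400, 144 of 8545 and 151 of 8818). Exact (Clopper-Pearson) 95% binomial intervals, which cover counting error only, were 2.01% to 2.67%, 2.11% to 2.78%, 1.42% to 1.98% and 1.45% to 2.01%. The means were 2.37% ± 0.0772 (SD, n = 2) in control and 1.70% ± 0.0192 (SD, n = 2) in mutant libraries, which did not overlap. A two-sided exact permutation test gave p = 0.333, the smallest that 2 against 2 libraries allow. Among keratinocytes by the keratin limits the shares were 6.18%, 6.64%, 6.23% and 6.21%, and the groups overlapped (exact permutation p = 1.0). Cells thinned to 5000 UMIs, with a gate of 2 UMIs, gave 1.85%, 2.02%, 1.28% and 1.21% of kept cells.

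**Figure D3:**
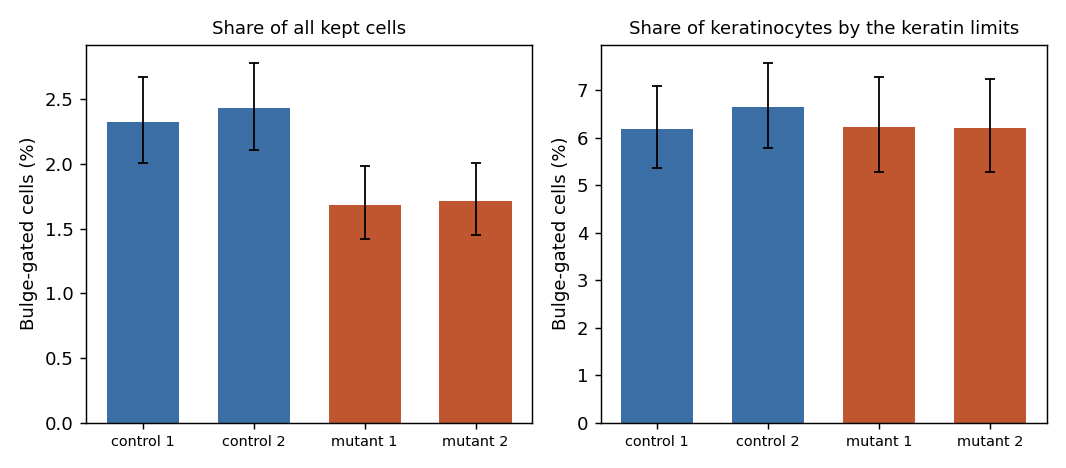
Bars give the share of bulge-gated cells in each control and mutant library among all kept cells (left) and among keratinocytes by the keratin limits (right), in percent, with exact 95% binomial intervals. The left bars stand at 2.32% and 2.43% against 1.69% and 1.71%, and the right bars between 6.18% and 6.64%.

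Between genotypes, members differed in genes of melanocytes and fibroblasts, in several keratinocyte genes and in a few transcription factors, while bulge markers did not pass the test. UMI counts of members were summed per library and tested with edgeR, and a gene was called at an adjusted p under 0.05 and a log2 change of at least 1. Of 11199 genes tested, 56 were called (0.50%), with 39 higher (0.348%) and 17 lower (0.152%) in the mutant. The median log2 change over all genes was 0.0095, and 1718 genes had an unadjusted p under 0.05. The count was 10 without control library 1, 23 without control library 2, 158 without mutant library 1 and 96 without mutant library 2. Sums cannot tell fewer members with an mRNA from less of it per member.

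Genes of pigment cells rose. Pmel, which forms the fibrils of the melanosome, stood at 21.7, 17.5, 110.3 and 55.5 CPM (log2 change 2.06 ± 0.28 (SE), edgeR adjusted p = 0.013). Dct, dopachrome tautomerase of melanin synthesis, stood at 47.8, 51.4, 272 and 125 CPM (1.98 ± 0.29, edgeR adjusted p = 0.020). Both mutant libraries lay above both controls, as the rule for named genes required, and mutant library 1 was highest for each gene. Tyrp1 rose by a log2 change of 2.06, Syt4 by 1.59 and Gpnmb by 1.58. While 0.348% of all genes were called higher, 4 of 4 genes of the melanocyte marker list were, Mlana (2.499) included. Their summed level was 87.1, 77.7, 456 and 224 CPM in members and 1.89 to 13.7 CPM in basal cells. Cells gated as melanocytes held 4616 to 8414 CPM of Dct. In follicle-led members Dct stood at 4.10, 4.96, 3.35 and 3.79 CPM and Pmel at 0, 1.15, 1.34 and 0.632 CPM. Sub-cluster 7, which these genes set apart, held only 7, 4, 9 and 6 members of the 4 libraries. It is not in the follicle-led set, so the low values of that set follow from the split. None of Pmel, Dct, Tyrp1, Syt4 and Gpnmb was called when either control library was left out.

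Genes of dermal fibroblasts rose as well. Dpt, a dermal matrix protein, stood at 3.95, 4.80, 27.4 and 15.8 CPM (log2 change 2.27 ± 0.31, edgeR adjusted p = 0.013). Lum, a collagen-binding proteoglycan, stood at 21.5, 5.01, 52.5 and 57.9 CPM (2.04 ± 0.40, edgeR adjusted p = 0.046). Prrx1, a mesenchymal transcription factor (log2 change 1.99), Ctsk, a cysteine protease (1.79), and Tnfaip6, a hyaluronan-binding protein (1.69), were also called. Each had both mutant libraries above both controls, as the rule for named genes required. The same order held in 10 of 10 cell groups of the skin for Ctsk, 9 for Tnfaip6, 7 for Prrx1 and 6 for Dpt. Lum had it in 8 and the reverse in 2. The groups were members, basal and upper follicle cells, and cells gated as suprabasal, fibroblast, papilla, immune, endothelial or melanocyte. All kept cells outside the members formed the last group, which contains every group but members, so the 10 are not separate. The share of all genes with such an order was not counted. Of 5 fibroblast markers 2 were called higher, Lum and Dcn, beside 0.348% of all genes. The 5 levels summed to 762, 289, 937 and 1303 CPM in members, where control library 1 lay near mutant library 1. In basal cells they summed to 359, 211, 479 and 567 CPM. Dcn stood there at 75.5, 56.5, 143 and 143 CPM. Both mutant libraries lay above both controls in basal cells for the sum and for Dcn. Cells gated as fibroblasts held 1398 to 1774 CPM of Lum and numbered 1253, 1251, 2207 and 2284 in the 4 libraries. In follicle-led members Lum stood at 2.87, 4.20, 10.7 and 12.01 CPM (log2 change 1.65, edgeR adjusted p = 0.031), and Ctsk lost the call, at 2.05, 5.73, 6.69 and 5.06 CPM (0.56, edgeR adjusted p = 0.61). In that set 5 of 5 fibroblast markers were called higher, beside 0.616% of all genes, with Col1a1 at 26.6, 23.7, 110.4 and 78.4 CPM (log2 change 1.90, edgeR adjusted p = 1.4e-04) and Dcn at 24.2, 24.05, 50.2 and 53.7 CPM (1.10, edgeR adjusted p = 0.0036). Col1a2 changed by 1.44 and Col3a1 by 1.47 (edgeR adjusted p = 4.3e-04 and 0.0011). Fibroblast markers were thus higher in mutant follicle-led members, at low levels, and their sum was higher in mutant basal cells as well. The part of RNA from fibroblasts in this was not tested. Without doublets Lum and Prrx1 lost the call, and without either control library Dpt, Prrx1, Ctsk and Tnfaip6 did.

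Prss22 and Pdlim3 were the other named rises. Prss22, a tryptase-like serine protease, stood at 1.97, 2.92, 30.8 and 34.3 CPM (9, 14, 99 and 100 UMIs), a log2 change of 3.68 ± 0.25 (edgeR adjusted p = 2.1e-04). Basal cells held 0.943, 0.987, 15.3 and 16.9 CPM and upper follicle cells 6.56, 3.104, 53.4 and 42.3 CPM, and the mutant libraries lay above the controls in 10 of 10 cell groups of the skin. Pdlim3, an actin-associated LIM protein, stood at 7.02, 7.93, 17.1 and 30.8 CPM (1.63 ± 0.29, edgeR adjusted p = 0.030). It was at most 1.39 CPM in basal and upper follicle cells, and 10.2, 12.98, 30.1 and 44.9 CPM in follicle-led members (log2 change 1.68, edgeR adjusted p = 0.0021). Pdlim3 was not called when either control library was left out.

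Htra1 and Ucp2 were named after their values were seen. Htra1, a secreted serine protease, stood at 205, 219.8, 493 and 427 CPM (log2 change 1.08 ± 0.11, edgeR adjusted p = 0.0027), at 237, 255, 649.9 and 539 CPM in follicle-led members and at 143, 138, 173 and 171 CPM in basal cells. Mutant libraries lay above control libraries for Htra1 in each of these sets. GENCODE vM21 places Htra1 at chr7:130936111-130985660 (plus strand) of GRCm38. Ucp2, a mitochondrial carrier, stood at 55.5, 58.9, 110.3 and 122 CPM, a log2 change of 0.99 just under the fold minimum (edgeR adjusted p = 0.0077). Htra1 fell below the fold minimum without mutant library 1, at 0.96.

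Among the named falls, 4 had both mutant libraries below both controls in 10 of 10 cell groups, members included: Hist1h2al, Gt(ROSA)26Sor, Ly6d and Ddx23. Hist1h2al, a histone copy annotated as a processed pseudogene that could share reads with near-identical histone genes, gave 105, 144, 0 and 1 UMIs (edgeR adjusted p = 2.1e-04) and in basal cells 11.2, 11.1, 0.0836 and 0.0866 CPM. Gt(ROSA)26Sor, a transcript of the locus that carries the reporter, stood at 32.2, 29.9, 1.86 and 1.37 CPM (log2 change -4.25 ± 0.28, edgeR adjusted p = 2.1e-04) and in basal cells at 26.97, 25.9, 1.05 and 1.04 CPM. Ly6d stood at 1806, 1929, 687 and 547 CPM (-1.63 ± 0.12, edgeR adjusted p = 2.1e-04). Basal cells held 6062, 5921, 1759.6 and 1867 CPM of it, other-led members 3705, 4057, 1213 and 1098 CPM and follicle-led members 157, 166, 80.3 and 81.6 CPM. Ly6d was thus lower in the mutant at each of these very different levels. Ddx23, a splicing helicase, stood at 25.7, 24.01, 7.77 and 8.91 CPM (-1.60 ± 0.20, edgeR adjusted p = 0.011). Ly6d and Ddx23 lost the call in members of 5000 to 20000 UMIs. The gaps in Hist1h2al, Gt(ROSA)26Sor, Ly6d, Ddx23, Prss22 and Ctsk were thus seen in each of the 10 cell groups, which are not separate. Since both libraries of a genotype are technical replicates, the Smo allele cannot be told apart from any other difference between the mice, such as strain background.

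Mvd, an enzyme of sterol synthesis (log2 change -1.68), Tango6 (-1.16), Agbl3 (-1.05) and Osbpl3, an oxysterol-binding protein (-1.01), fell too, and lost the call when either control library was left out. Ikzf4, a zinc finger transcription factor, stood at 41.0, 35.3, 15.5 and 16.1 CPM (-1.30 ± 0.17, edgeR adjusted p = 0.012) and in basal cells at 8.04 to 9.54 CPM.

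Hilpda, Nr4a3 and Egr4 fell in members. Hilpda, a lipid droplet protein induced by hypoxia, stood at 302, 218, 113 and 119 CPM (log2 change -1.19 ± 0.15, edgeR adjusted p = 0.011), and basal cells held 251, 252, 249 and 241 CPM. Nr4a3, an orphan nuclear receptor, stood at 222, 173, 88.0 and 101 CPM (-1.10 ± 0.14, edgeR adjusted p = 0.011), and basal cells held 100.1, 103, 105 and 91.7 CPM. Egr4, a zinc finger factor of the immediate early kind, stood at 23.9, 29.6, 10.6 and 11.6 CPM (-1.30 ± 0.21, edgeR adjusted p = 0.023), and basal cells held 18.5, 18.1, 18.7 and 16.8 CPM. Both control libraries lay above both mutant libraries in members for these 3 genes, as the rule for named genes required. The same held in 5 of 10 cell groups of the skin, members included, for Hilpda, in 6 for Nr4a3 and in 3 for Egr4, and the effect was not shown to differ from that in upper follicle cells. On GRCm38 the same annotation places Hilpda at chr6:29272488-29275446 (plus strand), Nr4a3 at chr4:48045153-48086447 (plus strand) and Egr4 at chr6:85511121-85513589 (minus strand). Without control library 1 the log2 changes were -0.94 for Hilpda, -0.91 for Nr4a3 and -1.45 for Egr4, and none of the 3 was called.

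In follicle-led members the gaps were wider, with Hilpda at 233, 239, 78.98 and 59.4 CPM (log2 change -1.78), Nr4a3 at 236, 194, 76.3 and 61.3 CPM (-1.65, edgeR adjusted p = 6.3e-05) and Egr4 at 29.5, 45.0, 8.70 and 8.85 CPM (-2.09). The related receptors did not pass over all members. Nr4a1 stood at 1136, 676, 469.9 and 534 CPM (-0.88 ± 0.19, edgeR adjusted p = 0.068) and Nr4a2 at 206, 133, 69.3 and 125 CPM (-0.83 ± 0.25, edgeR adjusted p = 0.16). In follicle-led members both were called, at log2 changes of -1.18 and -1.41 (edgeR adjusted p = 4.5e-04 and 7.1e-04). Egr4 and Nr4a1 lead sub-cluster 2, which held 39, 40, 12 and 15 members of the 4 libraries. It made up 28.5%, 26.7%, 12.1% and 13.4% of follicle-led members. Within it Nr4a1 stood at 2532, 2035, 1431 and 841 CPM, Nr4a3 at 422, 429, 255 and 67.2 CPM and Egr4 at 62.8, 117, 10.5 and 12.9 CPM. Other follicle-led sub-clusters varied. Nr4a1 overlapped in sub-clusters 0 (941, 387, 439 and 578 CPM) and 1 (298, 196, 295 and 344 CPM). It was lower in the mutant in 4 and 5. Nr4a2 overlapped in 0 and 5 and was lower in 1 and 4. Nr4a3 overlapped in 0 and 4 and was lower in 1 and 5. Hilpda overlapped in 0, 1 and 5 and was lower in 4. Egr4 overlapped in 0, 1 and 4. In 5 its mutant values lay above the controls, but at low levels in few members (3.82, 3.56, 23.7 and 7.54 CPM in 19, 28, 10 and 9 members). The part of the share of sub-cluster 2 in these falls was not tested.

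Nr4a1, Nr4a2, Nr4a3 and Egr4 were lower in the mutant in sums over follicle-led members, though not within every sub-cluster. For this reason the 250 bases before their RefSeq starts are shown (GRCm38.p6, 5′ to 3′ on the gene's strand). Capitals mark TGACG or its reverse complement CGTCA, the core of the site that CREB binds. The windows are chr15:101266596-101266845 (plus strand), chr2:57124004-57124253 (minus), chr4:48045055-48045304 (plus) and chr6:85513590-85513839 (minus). The RefSeq start lies 12577 bases downstream of the GENCODE gene start for Nr4a1 and 152 bases for Nr4a3, so both windows overlap the GENCODE gene, and it is the same for Nr4a2 and Egr4.
Nr4a1: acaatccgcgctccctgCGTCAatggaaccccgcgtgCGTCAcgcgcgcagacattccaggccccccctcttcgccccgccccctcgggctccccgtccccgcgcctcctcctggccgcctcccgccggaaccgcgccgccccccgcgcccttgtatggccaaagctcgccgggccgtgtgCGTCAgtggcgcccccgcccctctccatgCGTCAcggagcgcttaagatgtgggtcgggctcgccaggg
Nr4a2: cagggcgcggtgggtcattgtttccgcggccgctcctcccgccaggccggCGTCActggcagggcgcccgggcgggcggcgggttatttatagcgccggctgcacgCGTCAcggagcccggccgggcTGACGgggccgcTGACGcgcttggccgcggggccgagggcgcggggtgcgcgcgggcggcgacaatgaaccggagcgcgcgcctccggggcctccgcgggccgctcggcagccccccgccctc
Nr4a3: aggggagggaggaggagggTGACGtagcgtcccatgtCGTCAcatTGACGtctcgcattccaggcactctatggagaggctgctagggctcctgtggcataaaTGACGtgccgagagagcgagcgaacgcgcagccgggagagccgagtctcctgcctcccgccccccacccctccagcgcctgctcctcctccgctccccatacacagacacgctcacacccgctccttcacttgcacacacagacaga
Egr4: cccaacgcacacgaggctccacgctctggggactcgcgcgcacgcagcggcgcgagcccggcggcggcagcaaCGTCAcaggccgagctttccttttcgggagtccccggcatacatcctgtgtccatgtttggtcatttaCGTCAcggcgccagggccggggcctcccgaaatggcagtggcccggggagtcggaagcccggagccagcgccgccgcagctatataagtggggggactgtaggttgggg
The core occurred 4 times in each Nr4a window and 2 times in that of Egr4, and at least once in 17.8% of 32851 promoter windows of this length, read on both strands. The palindrome TGACGTCA, which contains the core, was in 0 of the 4 windows and in 1.55% of all. ACGTG, part of the sites of hypoxia and E-box factors, was in 1 of the 4 and 16.6% of all. TGACTCA, bound by AP-1, was in 0 and 4.46%, and the CArG box of the serum response factor in 0 and 1.47%. The genes and motifs were chosen after the values were seen, and a match is a description.

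**Figure D4:**
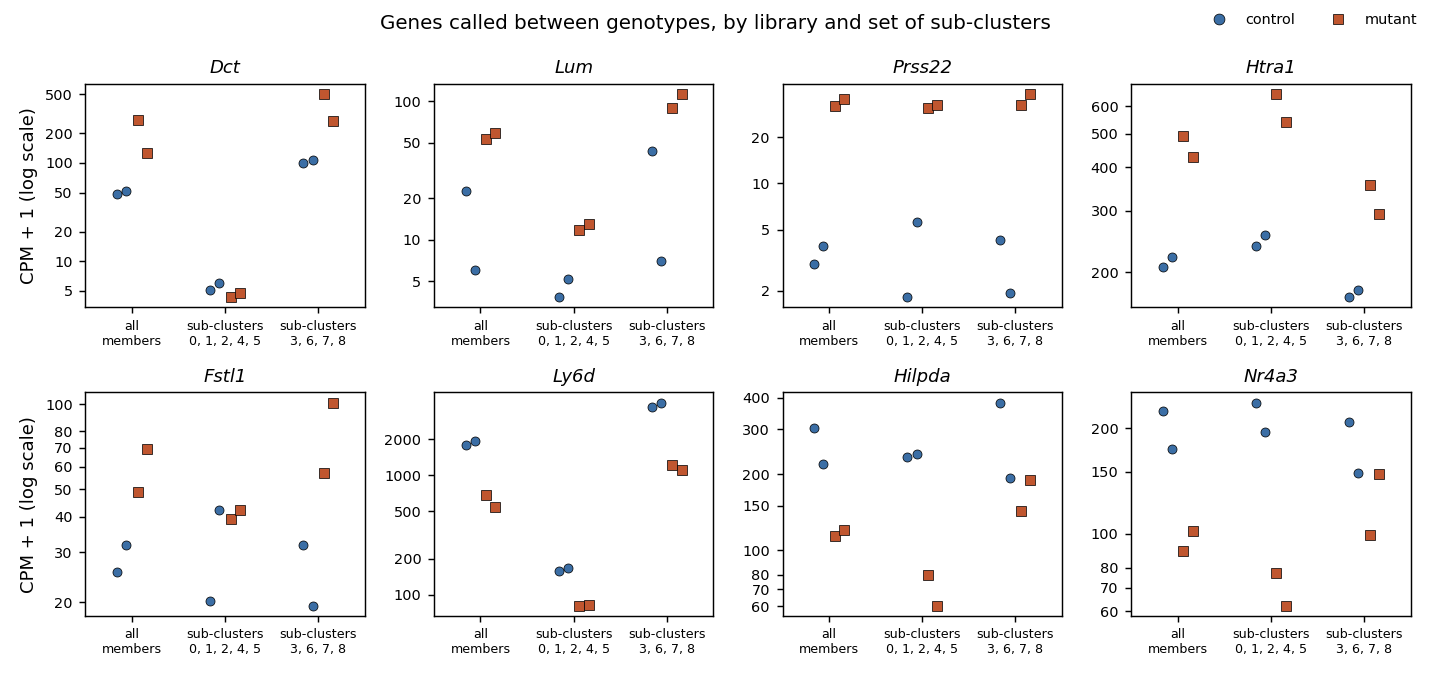
Levels (CPM + 1, log axis) of 8 genes called between genotypes, per control (circle) and mutant (square) library, in all members, in the 5 follicle-led sub-clusters and in the 4 other-led ones. Dct differs by genotype in all members but lies between 3.35 and 4.96 CPM in every library of the follicle-led set, a set without the sub-cluster led by Pmel and Dct, whereas Htra1, Hilpda and Nr4a3 keep their groups apart there.

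Without the other-led members, 126 of 9740 genes were called (1.29%), 60 higher (0.616%) and 66 lower (0.678%). Of the 56 genes called over all members, 42 could be tested here and 32 were called again, which is 57.1% of the first list and 25.4% of the second. Krt24, a keratin that led sub-cluster 0, is in the second list, at 16.8, 6.49, 52.2 and 33.5 CPM in follicle-led members (log2 change 1.88, edgeR adjusted p = 0.0057), as are the 5 fibroblast markers given above. Sub-cluster 0 took 23.4%, 12.7%, 31.3% and 28.6% of follicle-led members, and within it Krt24 stood at 115, 80.4, 247 and 156 CPM. Both the share and the level within it were thus higher in the mutant libraries. Krt24 was seen in 2.62%, 1.48%, 9.09% and 8.67% of all members at 2000 UMIs (exact permutation p = 0.333), in 0.0606% to 0.239% of basal cells, and without thinning in 10.9%, 9.31%, 25.7% and 17.2% of members.

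Bulge identity genes were not called between genotypes. The outer bulge list had 0 of 11 genes called, 9 positive changes and a median log2 change of 0.34, against 0.0095 over all genes. Cd34 changed by 0.48 ± 0.11 (edgeR adjusted p = 0.083) and Krt15 by 0.34 ± 0.09 (edgeR adjusted p = 0.13), both with mutant libraries above controls. Groups that do not overlap were common, at 46.9% of all genes tested, and 8 of the 11 had them. Ptn, a heparin-binding growth factor, passed on p alone at 717, 596, 944 and 1047 CPM (0.57 ± 0.11, edgeR adjusted p = 0.037), as did 0.464% of all genes in the higher direction. Wif1, a secreted inhibitor of Wnt, stood at 16.7, 12.1, 32.3 and 26.7 CPM (1.01 ± 0.21, edgeR adjusted p = 0.055), and Sostdc1, an inhibitor of Wnt and Bmp signals, at 64.5, 51.6, 81.4 and 99.0 CPM (0.61 ± 0.14, edgeR adjusted p = 0.089). In follicle-led members Cd34 stood at 119.6, 113, 175 and 211 CPM, a log2 change of 0.72 (edgeR adjusted p = 0.0061).

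The sub-clusters rich in Cd34 and Krt15 took more of the mutant members. Sub-clusters 0 and 1 together held 26.6%, 26.96%, 38.9% and 41.7% of all members and 37.2%, 36.7%, 56.6% and 56.2% of follicle-led ones, a description, since the clustering used these genes. Within sub-cluster 0 Cd34 stood at 253, 461, 297 and 447 CPM and within sub-cluster 1 at 477, 467, 469 and 394 CPM, and the genotypes overlapped in both. Krt15 stood at 13132, 14292, 14139 and 15116 CPM in sub-cluster 0, where the genotypes overlapped, and at 13315, 14789, 12992 and 13213 CPM in sub-cluster 1, where the mutant values were the lower ones. Neither gene thus had both mutant libraries above both controls inside sub-clusters 0 and 1. Inside sub-cluster 2 both genes did, with Krt15 at 3729, 3250, 4129 and 4886 CPM and Cd34 at 19.6, 16.3, 20.9 and 38.8 CPM. Both overlapped in sub-clusters 4 and 5. The part of the sub-cluster shares in the higher sums of Cd34 and Krt15 was not tested.

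The inner bulge list had 0 of 5 tested genes called and a median of 0.48. Krt6a stood at 146, 147, 167 and 252 CPM and Fgf18 at 34.9, 43.4, 39.5 and 70.2 CPM, and mutant library 2 was highest for both. Of 15 bulge transcription factors 0 were called, with a median of 0.04. Sox9 differed by -0.01 ± 0.12, Nfatc1, which keeps bulge cells at rest, by -0.22 ± 0.15, and Tcf7l1, a repressor of Wnt targets, by -0.67 ± 0.18 (edgeR adjusted p = 0.12). The hair germ list (5 genes), the isthmus list (4) and the matrix list (5 tested) had 0 calls, with medians of 0.09, 0.02 and -0.05.

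Hedgehog genes were not called in either list. Of 7 tested response genes 0 passed, and the median was 0.13. Gli1, an effector and target of the pathway, stood at 15.6, 17.5, 10.9 and 18.2 CPM, and its groups overlapped. Ptch1, the receptor and a target, stood at 14.5, 15.2, 19.9 and 21.9 CPM (log2 change 0.46 ± 0.19, edgeR adjusted p = 0.28), and Hhip, a decoy receptor, at 1.32, 1.67, 9.95 and 4.11 CPM (2.20 ± 0.52, edgeR adjusted p = 0.088). The reception list of 8 genes had a median of 0.06. Smo itself stood at 24.6, 29.6, 23.3 and 35.97 CPM (0.09 ± 0.21, edgeR adjusted p = 0.89), and at 9.10 to 10.1 CPM in basal cells. A 3′ count does not show whether another part of the gene was deleted.

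Lepr, whose locus drives the recombinase, stood at 2.85, 3.34, 4.04 and 3.08 CPM in members, at 2.34 to 4.33 CPM in basal cells and at 74.03 to 128 CPM in gated papilla cells. eGFP stood at 67.1, 78.1, 80.2 and 101 CPM in members, 58.3 to 71.05 CPM in basal cells and 456 to 599 CPM in papilla cells, and tomato at 1053 to 1146 CPM in members. YFP was at 0 in control members and at 1.55 and 1.03 CPM in mutant members. Members thus lay near basal cells, and far below papilla cells, in Lepr and in the recombined reporter.

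Signalling lists gave 1 call, beside 0.50% of all genes called in either direction. The Wnt response list (8 tested, median 0.20), Wnt ligands and receptors (15, -0.06) and Wnt inhibitors (5, 0.29) had 0. The Bmp response list had 0 of 8, with Id3, a target of Bmp signals, at 2159.9, 1627, 2093 and 2089 CPM. Among Bmp, Tgfb and activin signals 1 of 15 was called, the follistatin-like Fstl1, at 24.6, 30.9, 47.9 and 68.2 CPM (log2 change 1.03 ± 0.18, edgeR adjusted p = 0.033), which lost the call in follicle-led members (0.37, edgeR adjusted p = 0.47). Fst, the activin antagonist, stood at 787, 792, 463 and 682 CPM (-0.49 ± 0.15, edgeR adjusted p = 0.16). In the Notch list 0 of 8 passed, and its target repressor Hes1 stood at 193, 131, 246 and 292 CPM (0.70 ± 0.16, edgeR adjusted p = 0.083). The Fgf list had 0 of 6 and a median of -0.09, with the receptor Fgfr2 at 181, 201, 150.4 and 136 CPM (-0.44 ± 0.11, edgeR adjusted p = 0.11).

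All 16 immediate early and heat shock genes had negative changes, with a median of -0.38, but 0 were called. Dnajb1, a co-chaperone of Hsp70, passed on p alone at 1445, 1027, 736 and 718 CPM (log2 change -0.80 ± 0.14, edgeR adjusted p = 0.029), as did 0.625% of all genes in the lower direction. Fos stood at 4954, 3394, 3100.3 and 2871 CPM (-0.51 ± 0.14, edgeR adjusted p = 0.14) and Egr1 at 3765, 2634, 2274 and 2467 CPM (-0.46 ± 0.14, edgeR adjusted p = 0.16). Control library 1 was highest for these 3 genes. Hspa1a overlapped, at 3276, 2181, 1994 and 2842 CPM. Sub-cluster 2, led by such genes, held 20.3%, 19.6%, 8.33% and 9.93% of members. Inside it Fos stood at 12055, 11397, 9203 and 6042 CPM and Egr1 at 8211, 7300.2, 7769 and 3236 CPM. Inside sub-cluster 1 Fos stood at 2909, 2806, 3346 and 2563 CPM and Egr1 at 3606, 3049, 4641 and 4996 CPM. In sub-cluster 2 the mutant values of Fos lay below the controls and Egr1 overlapped, and in sub-cluster 1 Fos overlapped and the mutant values of Egr1 lay above the controls. The median depth of members was also higher in both control libraries, and the parts of depth and of the share of sub-cluster 2 in these differences were not tested.

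Cell cycle genes were not called between genotypes. Mki67, a protein of dividing cells, stood at 10.1, 11.1, 6.53 and 15.1 CPM in members and 13.9 to 22.96 CPM in basal cells. By CPM, mutant library 2 members lay above the basal cells of that library (13.9 CPM), unlike those of the other 3 libraries. The share of cells with Mki67 was not higher in mutant library 2 members. Without thinning it was 6.62% of these members and 11.56% of the basal cells of that library. With thinning it was 2.0% and 2.59%. The cell cycle list had 0 of 12 called and a median of -0.10. The cycling marker list (Mki67, Top2a, Birc5 and Cdk1) had 0 of 4 called, 4 negative changes and a median of -0.68, and summed to 49.995, 48.2, 24.2 and 44.2 CPM in members and 44.9 to 76.1 CPM in basal cells. Top2a, a topoisomerase of dividing cells, stood at 24.6, 23.6, 11.5 and 17.1 CPM (-0.79 ± 0.21, edgeR adjusted p = 0.12). Stress keratins and alarm genes (0 of 10, median 0.10), chemokines and immune signals (0 of 12, 0.01), antigen presentation (0 of 12, -0.16), integrins and basement membrane (0 of 16, -0.05) and signals to nerve and muscle (0 of 7, 0.05) had no call either. Npnt, the matrix protein by which the bulge anchors the arrector muscle, stood at 64.9, 65.8, 88.9 and 89.8 CPM (0.42 ± 0.11, edgeR adjusted p = 0.12). In the metabolism list 0 of 12 were called, 10 changes were negative and the median was -0.22. Cyp26b1, which degrades retinoic acid, passed there on p alone, at 16.2, 20.5, 32.3 and 42.8 CPM (0.996 ± 0.19, edgeR adjusted p = 0.043). Osmr, the oncostatin M receptor, named after its values were seen, stood at 140.3, 149, 73.7 and 78.5 CPM (-0.96 ± 0.11, edgeR adjusted p = 0.0077).

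The genotype effect in members was then set against that in basal cells, with an interaction term over the 8 sums of both groups. Of 15178 genes 37 differed (0.244%), 7 with the more positive effect in the bulge (0.0461%) and 30 with the more negative one (0.198%). Cxcl9 and Cxcl10, chemokines induced by interferon that attract T cells, were among the latter. Cxcl10 stood at 94.9, 131, 269 and 177 CPM in members and 46.7, 49.2, 407 and 303 CPM in basal cells (difference of log2 changes -1.90 ± 0.13, edgeR adjusted p = 1.0e-04). Cxcl9 stood at 16.01, 9.19, 41.3 and 22.6 CPM and 2.46, 4.10, 53.5 and 55.6 CPM (-2.71 ± 0.41, edgeR adjusted p = 0.014). Mutant libraries were above controls in both groups, with the wider gap in basal cells. In follicle-led members that order did not hold, with Cxcl10 at 103, 191, 408 and 86.0 CPM and Cxcl9 at 22.1, 15.6, 60.9 and 15.8 CPM, while the differences from basal cells were -2.32 and -3.09 (edgeR adjusted p = 3.6e-04 and 4.0e-04). Cxcl2, a chemokine for neutrophils, stood at 169, 169, 78.0 and 22.3 CPM in members and 170.3, 178, 177 and 134 CPM in basal cells (-1.64 ± 0.27, edgeR adjusted p = 0.017), and lost the call in follicle-led members (-0.69, edgeR adjusted p = 0.076).

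Gli1 differed by -1.85 ± 0.35 (edgeR adjusted p = 0.033), with 0.667, 0.675, 2.17 and 2.04 CPM in basal cells beside its higher level in members. Wif1 differed by -1.44 ± 0.24 (edgeR adjusted p = 0.022), with 2.36, 1.63, 10.3 and 12 CPM in basal cells. Hilpda (-1.11), Nr4a3 (-1.01), Egr4 (-1.22) and Ikzf4 (-1.14) were called here as well. Slc7a8, an amino acid transporter, stood at 37.9, 39.7, 23.6 and 20.6 CPM in members and at most 1.23 CPM in basal cells (-1.65 ± 0.31, edgeR adjusted p = 0.031). Flnc, a filamin, stood at 36.2, 51.8, 30.5 and 34.6 CPM and at most 3.14 CPM (-1.47 ± 0.29, edgeR adjusted p = 0.038). For Gli1, Slc7a8 and Flnc the compared basal level was near 0.

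On the positive side, Ces2g, a carboxylesterase, stood at 17.8, 17.7, 47.2 and 37.7 CPM in members and 10.7, 10.7, 10.1 and 10.3 CPM in basal cells (1.33 ± 0.19, edgeR adjusted p = 0.011). Marveld1, a membrane protein, stood at 23.02, 18.6, 27.4 and 29.5 CPM and 12.3, 13.2, 8.59 and 8.64 CPM (1.02 ± 0.20, edgeR adjusted p = 0.042), a call lost without control library 2 and without mutant library 2. Sprr2h, a cornified envelope protein, stood at 15.3, 14.8, 34.5 and 38.7 CPM and 59.5, 57.4, 76.0 and 58.1 CPM (1.09 ± 0.19, edgeR adjusted p = 0.022). It lost the call without mutant library 2, and its sign turned in follicle-led members (-0.57). Gzmc, a granzyme of lymphocytes, rested on mutant library 1, at 0.658, 0.626, 49.7 and 1.03 CPM in members and 8.73, 6.797, 1.38 and 1.78 CPM in basal cells (7.29 ± 1.24, edgeR adjusted p = 0.022). Without mutant library 1 it was not called, at 2.79. The effects differed by 0.13 ± 0.13 for Ly6d (edgeR adjusted p = 0.73) and by -0.32 ± 0.32 for Prss22 (edgeR adjusted p = 0.74), so a difference between bulge and basal cells was not shown for them.

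**Figure D5:**
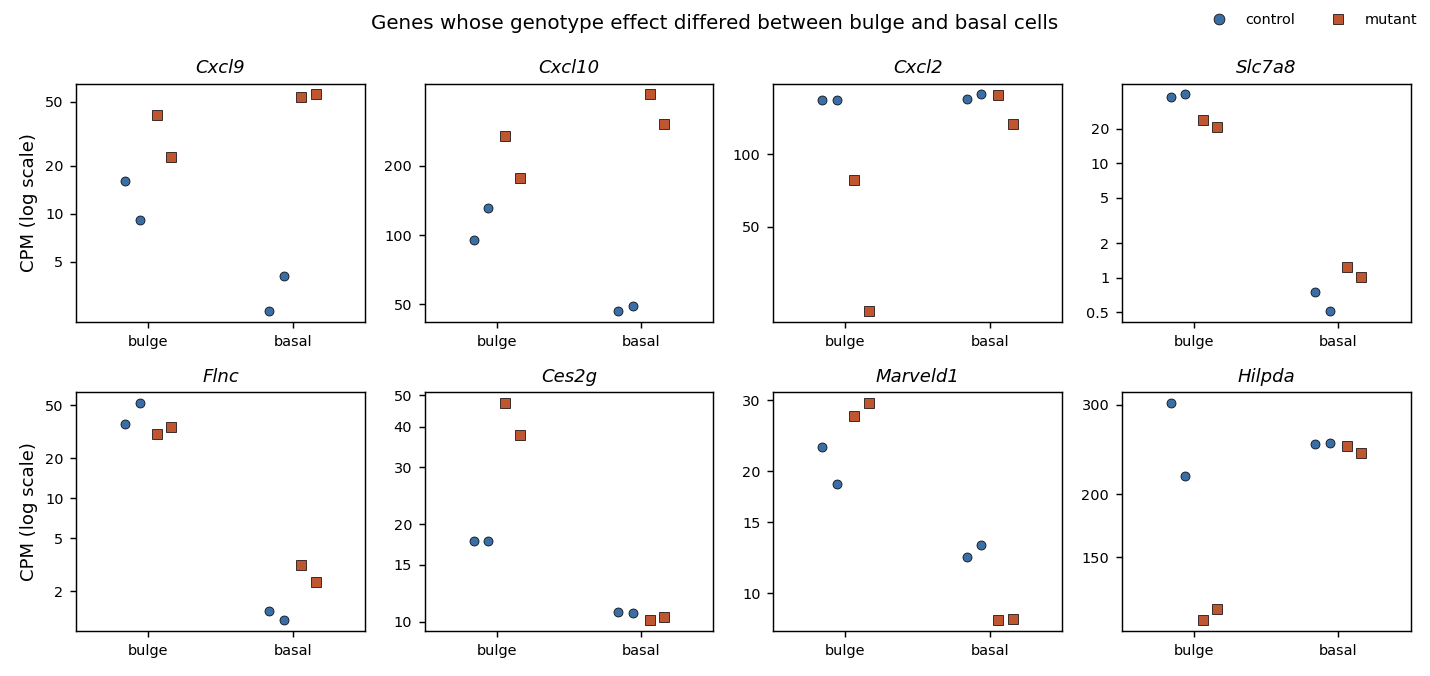
Levels (CPM, log axis) of 8 genes called for a different genotype effect in bulge and basal cells, with 1 point for each control (circle) and mutant (square) library. Cxcl9 and Cxcl10 show the wider gap in basal cells, and Hilpda is lower in mutant bulge cells, at 113 and 119 CPM, while basal cells lie between 241 and 252 CPM.

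Against upper follicle cells, 0 of 11251 genes passed the same edgeR interaction test (0.00%), while 853 had an unadjusted p under 0.05 and the smallest adjusted p was 0.054. With size factors of the DESeq2 kind 1 gene passed. The upper follicle sums rested on 141, 143, 75 and 93 cells.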

How the data were processed

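Gene expression was measured in 4 unsorted single-cell libraries. The deposited values are raw UMI counts per gene and barcode for 28001 features, made with Cell Ranger 3.1.0 per the file headers, and the submitters' processing notes also name Cell Ranger 2.1.1, Seurat 3.2.2, Scanpy 1.6.0, mm10 and GRCm38. The deposited files hold 10748, 11072, 11563 and 11816 barcodes and 147245343 to 171197845 UMIs per library.

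The members, gene lists and tests were chosen with earlier results of these data known. Cells were gated by the limits given above. Doublets were scored with scrublet in scanpy 1.11.5, at a limit of 0.25, because the automatic limit of 0.600 in control library 1 marked 0 cells. Members were clustered with leidenalg 0.10.2 on 1500 variable genes and 20 components. Counts were summed per library and tested with edgeR 4.0.16 in R 4.3.3 (TMM, filterByExpr, quasi-likelihood, genotype as the only term) with Benjamini-Hochberg adjustment. The interaction fit had library, cell group and the genotype effect within cell groups. CPM are plain, and log2 changes come from the fit. Scripts were tested on simulated counts.

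Named genes were up to 12 rises and 12 falls, and up to 5 interactions of each sign, ranked by fold among called genes that reached 20 CPM in 1 group and whose libraries did not overlap, without gate genes, reporters, mitochondrial and predicted genes. List members are also named, some of them after their values were seen. Marker and gene lists numbered 20 and 23. Alternatives covered scaling, filters, doublets, other gates, depth, left-out libraries, the replicate number and DESeq2 1.42.0. Depth limits precision to sums of 144 to 204 members per library.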

Additional observations from a re-analysis of the deposited data

Results flagged for a closer look

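The effect of genotype differed between bulge and basal keratinocytes by the interaction test of edgeR in 37 genes. The named genes with a more positive effect in the bulge were Gzmc (difference of log2 changes 7.29), Ces2g (1.33), Sprr2h (1.09) and Marveld1 (1.02). Those with a more negative effect were Cxcl9 (-2.71), Cxcl10 (-1.90), Slc7a8 (-1.65), Cxcl2 (-1.64) and Flnc (-1.47). Gzmc had 0.658, 0.626, 49.7 and 1.03 CPM in members, so that mutant library 1 alone set its value.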

How the results depend on the processing

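The 56 calls between genotypes became 122 with no fold minimum, 96 with no filter on low counts, 15 in cells of 5000 to 20000 UMIs, 37 with a gate of 3 UMIs and 3 per 10000, and 126 without the other-led members, a setting chosen after the data were seen. They ranged from 10 to 158 when 1 library was left out. DESeq2 made 46 calls. In cells of 5000 to 20000 UMIs, 21 of the 24 named genes could be tested and 6 stayed called. Ly6d, Ddx23 and Egr4 were among the 15 that lost the call there. With a gate of 3 UMIs and 3 per 10000, 10 of the 24 stayed called. Of the 24 named genes, 5 stayed called without control library 1, 9 without control library 2, 24 without mutant library 1 and 21 without mutant library 2. The 37 differences from basal cells became 168 with no filter, 86 without cells rich in genes of other lineages, 13 in cells of 5000 to 20000 UMIs, 81 with a gate of 5 UMIs and 228 without the other-led members, and 105 to 135 without 1 library. The 0 differences from upper follicle cells became 1 with DESeq2-kind size factors, without doublets or with a gate of 2 UMIs, 73 with no filter, 9 without cells rich in genes of other lineages, 20 in cells of 5000 to 20000 UMIs and 15 without the other-led members, and 3 to 8 without 1 library.

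Signs turned without cells rich in genes of other lineages for Pmel (-1.20), Dct (-1.74), Syt4 (-1.39) and Gpnmb (-0.83), where those cells were removed by construction. They turned in cells of 5000 to 20000 UMIs for Pmel (-0.020), Gzmc (-0.27) and Sprr2h (-0.38), with a gate of 3 UMIs and 3 per 10000 for Dcn (-0.30) and Sprr2h (-0.36), and without the other-led members for Sprr2h (-0.57). The cause was not tested. The difference in share, -0.675 points, ranged from -1.07 to -0.196 over all settings. The value of -0.196 is for the share of keratinocytes, a different measure, in which the groups overlapped. Without 1 library the difference among kept cells was -0.730 to -0.621.

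The replicate numbers do not pair the libraries by the labels, and their deviations correlated at -0.036. With a replicate block 108 genes were called and the 24 named genes kept their calls.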
